A study of Mus musculus with 6 samples.

Results

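A set of 9 transcription factors that steer blood progenitors into granulocytes, monocytes and macrophages were followed in spleen cells of transplanted mice given rapamycin or PBS. They are the C/EBP family members Cebpa, Cebpb, Cebpd and Cebpe, the ETS factor Spi1 (PU.1), the interferon regulatory factor Irf8, the Kruppel-like factor Klf4, the zinc finger repressor Gfi1 and the large Maf protein Maf. The 9 were chosen by name, out of 19938 genes with a probe set of their own on the array, and each had exactly 1 probe set with exactly 1 gene symbol. Cells that the labels call myeloid-derived suppressor cells, immature granulocytes and monocytes that hold T cell responses back, were taken from the spleen by magnetic beads against CD11b. The hosts of both groups were B6D2F1/J mice that had received lethal irradiation and then B6 bone marrow without its T cells, and the cells were taken at day 10. The protocol names grafts with and grafts without B6 spleen cells and does not say which mice had them. One group of 3 mice received PBS by intraperitoneal injection and the other group of 3 received rapamycin, an inhibitor of the growth kinase mTOR, at 1.5 mg/kg every second day. Each mouse gave 1 array, and the labels name the mice biological replicates, whose numbers are used here as mouse numbers.

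These factors bind DNA and switch on or off the genes that set a myeloid cell apart. PU.1 is needed in all myeloid lineages, and C/EBP alpha opens the way to granulocyte and monocyte progenitors. Gfi1 and C/EBP epsilon act on the path to neutrophils, the latter at the stage when secondary granules are made. Irf8 and Klf4 favour monocytes, and Irf8 also dendritic cells. C/EBP beta drives granulocyte production under stress and, in mice, is required for suppressor function of myeloid cells.

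The deposited values are log2 expression values made by RMA, in which 1 unit is a doubling. The lowest and highest array medians were 5.42 and 5.46. The sort marker Itgam (CD11b) lay between 12.22 and 12.48 in the 6 arrays, and the neutrophil calprotectin subunit S100a8 between 13.18 and 13.35. The neutrophil marker Ly6g spread more widely, from 11.66 in rapamycin mouse 3 to 12.36 in PBS mouse 2. Genes were compared with limma across 13965 genes whose mean passed a brightness filter at log2 4.72, and calls were made at an adjusted p under 0.05 (Benjamini-Hochberg). All 9 factors passed this filter by their mean over all 6 arrays.

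Gfi1 fell with rapamycin, and no other factor of the 9 passed the test in either direction. Gfi1 was 1.27-fold lower. Over all genes tested 11.3% were called, 4.42% as higher and 6.92% as lower, so 1 call among 9 is near the background of this comparison. The log2 changes of the 9 ran from -0.34 for Gfi1 to 0.24 for Cebpa, with 3 above 0 and 6 below, and a median of -0.045 beside -0.017 for all genes tested. The median size of the change, whatever its sign, was 0.12 for the 9 and 0.090 for all genes. The 95% confidence intervals of the 9 changes, each taken on its own, reached at most 1.42-fold lower (Gfi1) and 1.32-fold higher (Cebpa). The groups did not overlap for 3 of the 9, Cebpa with rapamycin above and Gfi1 and Cebpb with rapamycin below, where this held for 32.0% of all genes tested (12.6% above and 19.4% below). In sorted cells taken in bulk, fewer cells of a type and less RNA per cell cannot be told apart.

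**Figure D1:**
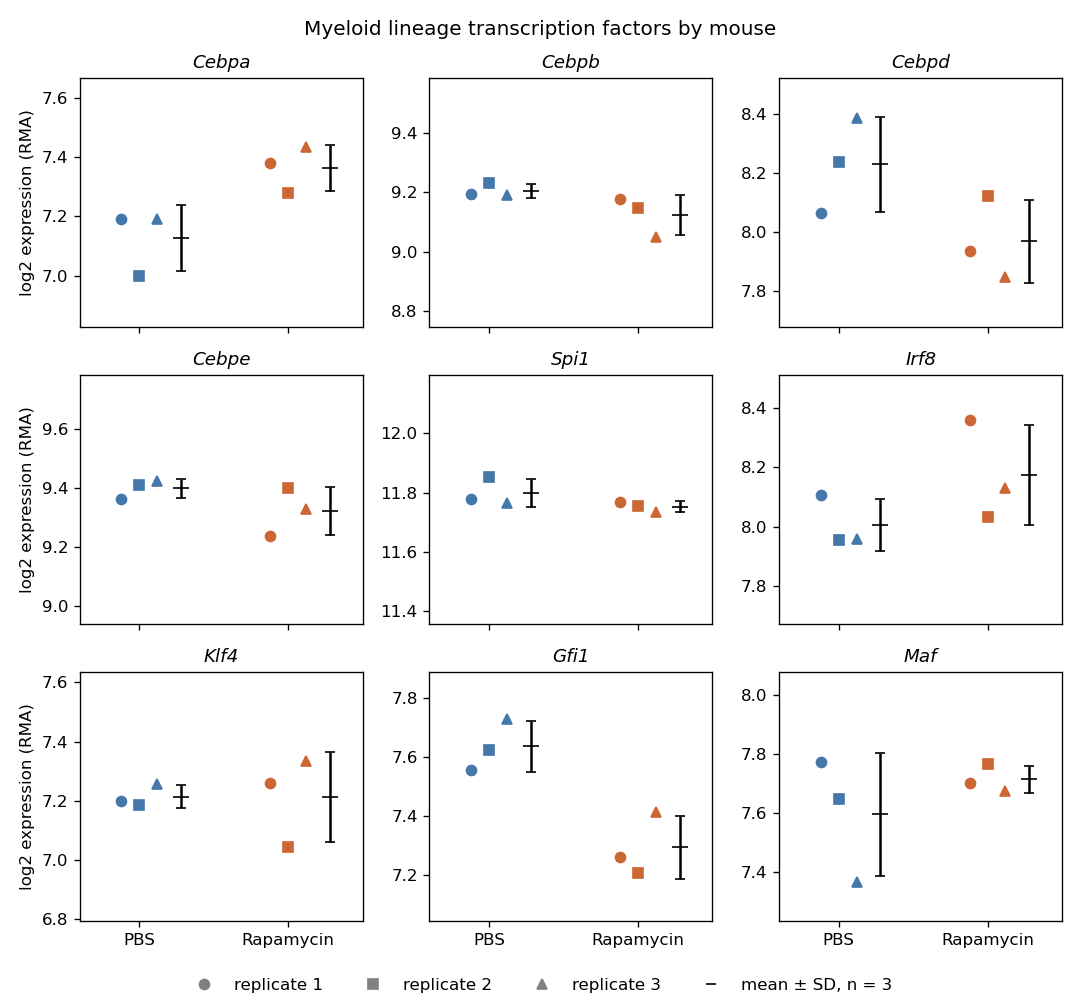
Deposited log2 expression of the 9 factors in each mouse (y axis, the same span in every panel; PBS blue, rapamycin orange, symbols by replicate), with the mean ± SD of 3 mice in black. The groups do not overlap for Cebpa, Cebpb and Gfi1; Gfi1 is lower in all 3 rapamycin mice, and the other 6 factors overlap.

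Gfi1 (probe set 10532124, chromosome 5) encodes a DNA-binding repressor that neutrophil development needs in mice and that T cells also use. In the PBS mice its log2 values were 7.56, 7.62 and 7.73. In the rapamycin mice they were 7.26, 7.21 and 7.41. The highest rapamycin value lay 0.14 below the lowest PBS value. The mean was 7.64 ± 0.09 with PBS and 7.29 ± 0.11 with rapamycin (SD, 3 mice a group). The difference of -0.34 ± 0.07 (SE) had an adjusted p of 0.0273 in limma. The change kept its sign and lay between -0.30 and -0.40 when any 1 array was left out. The call was kept in 1 of those 6 fits, that without rapamycin mouse 3 (limma adjusted p 0.0242). With PBS mouse 1, 2 or 3 left out the adjusted p was 0.0561, 0.0995 and 0.0888. With rapamycin mouse 1 or 2 left out it was 0.109 and 0.0764. The neutrophil marker Ly6g stood at -0.31 ± 0.14 (SE, limma adjusted p 0.202), with overlapping groups, and its part in the change of Gfi1 was not tested. Ly6g is 1 of 10 mature neutrophil genes tested, whose median change was 0.064. Of these 10 genes 3 were called as higher and 1 as lower, where 4.42% and 6.92% of all genes tested were. The fits with an array left out hold fewer samples, and they called between 0.809% and 9.57% of all genes.

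**Figure D2:**
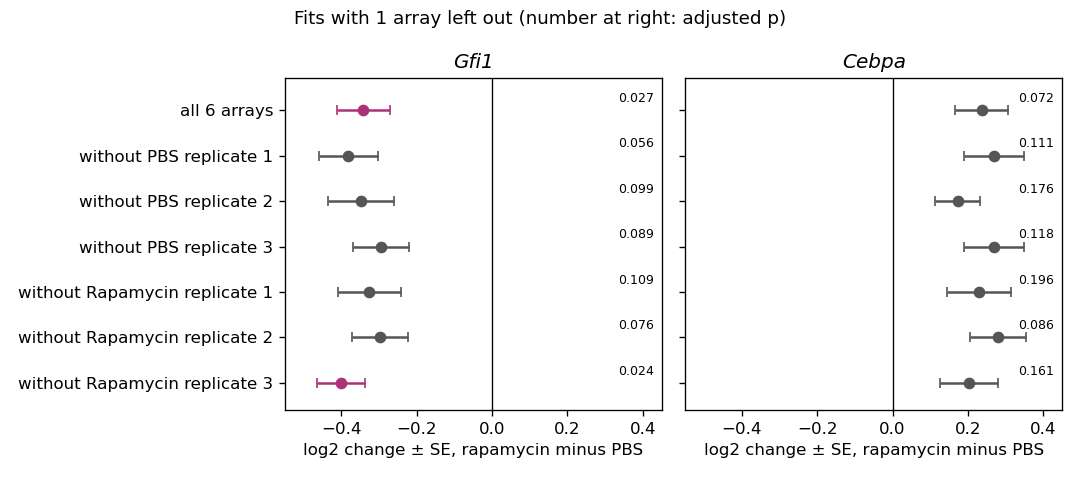
Log2 change of Gfi1 (left) and Cebpa (right) with its standard error (x axis) in the fit of all 6 arrays and in each fit with 1 array left out (y axis), with limma's adjusted p at the right and calls in purple. Gfi1 stays between -0.30 and -0.40, and its adjusted p is under the threshold with all arrays and without rapamycin mouse 3; Cebpa stays above 0 and is called in none of these fits.

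The promoter windows of Gfi1, the factor that fell, and of Cebpa, the next by p, and the upstream window of Irf8, which acts against Gfi1 in the choice between granulocytes and monocytes in mice, are shown as the DNA through which these genes are read. They are RefSeq windows of assembly GRCm38.p6, from 250 bases before to 50 bases after a start site, and the table held 7 windows for 5 of the 9 factors. Capitals mark matches, on either strand, to TTGCNNAA (C/EBP), CCAAT (the box that gave the family its name), GAGGAA (PU.1), GAAANNGAA (IRF), CACCC (KLF), AAATCA (GFI1) and TGCTGA (the core of a MAF half-site).
Gfi1 upstream window, chr5:107725756-107726055, minus strand: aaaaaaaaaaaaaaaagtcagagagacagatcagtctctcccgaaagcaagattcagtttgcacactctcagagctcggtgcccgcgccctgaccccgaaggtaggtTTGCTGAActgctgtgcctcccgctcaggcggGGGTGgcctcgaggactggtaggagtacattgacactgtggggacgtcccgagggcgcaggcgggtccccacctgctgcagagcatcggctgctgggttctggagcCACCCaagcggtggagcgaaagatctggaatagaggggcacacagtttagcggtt
Gfi1 downstream window, chr5:107724294-107724593, minus strand: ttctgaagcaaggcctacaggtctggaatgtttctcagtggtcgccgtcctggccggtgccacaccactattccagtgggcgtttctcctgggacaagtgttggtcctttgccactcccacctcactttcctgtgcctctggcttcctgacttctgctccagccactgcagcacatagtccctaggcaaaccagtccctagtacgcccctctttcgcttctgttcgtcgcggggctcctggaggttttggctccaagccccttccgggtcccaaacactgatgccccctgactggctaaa
Cebpa window, chr7:35119043-35119342, plus strand: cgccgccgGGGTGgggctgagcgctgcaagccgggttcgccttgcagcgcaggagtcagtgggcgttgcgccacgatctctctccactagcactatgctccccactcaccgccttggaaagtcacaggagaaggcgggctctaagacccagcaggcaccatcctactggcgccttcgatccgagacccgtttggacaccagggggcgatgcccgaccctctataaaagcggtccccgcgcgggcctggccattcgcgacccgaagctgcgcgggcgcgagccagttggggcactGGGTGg
Irf8 upstream window, chr8:120736108-120736407, plus strand: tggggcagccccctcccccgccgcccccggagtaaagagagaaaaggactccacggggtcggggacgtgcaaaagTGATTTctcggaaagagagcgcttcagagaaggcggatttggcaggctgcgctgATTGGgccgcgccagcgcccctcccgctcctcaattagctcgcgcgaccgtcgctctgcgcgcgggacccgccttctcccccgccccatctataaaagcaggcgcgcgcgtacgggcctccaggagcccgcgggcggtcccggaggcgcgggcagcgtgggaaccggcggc
The upstream Gfi1 window held a match to the C/EBP motif, TTGCTGAA, which overlaps the only MAF core of the window, and 2 matches to CACCC. Its downstream window held no match to any of the 7. The Cebpa window held 2 matches to CACCC, and both Irf8 windows held TGATTT, the GFI1 motif read on the other strand, the upstream one with a CCAAT box on that strand as well. The downstream Irf8 window, not shown, also held the MAF core, on the other strand. Of all 32851 windows of this length, 10.8% held the C/EBP motif, 57.5% CACCC, 14.0% the GFI1 motif and 19.5% the MAF core. CCAAT stood in 37.4% of them, GAGGAA in 28.3% and the IRF motif in 8.56%. A match is a description of the letters in a window.

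Among the C/EBP factors, Cebpa stood higher with rapamycin and the other 3 lower, none past the threshold. Cebpa (probe set 10552140), the factor of early granulocyte and monocyte commitment, had log2 values of 7.19, 6.999 and 7.19 with PBS and 7.38, 7.28 and 7.43 with rapamycin. All 3 rapamycin arrays lay above all 3 PBS arrays. It stood 0.24 ± 0.07 (SE) higher, 1.18-fold, at an adjusted p of 0.0723 in limma. It was called at 0.26 after a repeated quantile normalization (limma adjusted p 0.0417). Cebpd (probe set 10433885), an inducible factor of acute inflammation, had values of 8.06, 8.24 and 8.38 with PBS and 7.94, 8.12 and 7.85 with rapamycin. The groups overlapped through rapamycin mouse 2, which lay above PBS mouse 1. The difference was -0.26 ± 0.10 (SE) with a limma adjusted p of 0.138 and a 95% interval from -0.49 to -0.027.

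Cebpb (probe set 10478890) varied least among the C/EBP genes in the PBS mice. Its log2 values were 9.19, 9.23 and 9.19 with PBS and 9.18, 9.15 and 9.05 with rapamycin. The groups did not overlap, but rapamycin mouse 1 and the lowest PBS arrays were close. The difference was -0.080 ± 0.050 (SE, limma adjusted p 0.334), with a 95% interval from -0.20 to 0.036. Without rapamycin mouse 3 it was -0.043. The gene's mRNA gives a long activating and a short inhibitory protein from different start codons, and an array of RNA does not tell these apart. Cebpe (probe set 10419850), the factor of late neutrophil maturation, had values of 9.36, 9.41 and 9.42 with PBS. With rapamycin they were 9.24, 9.40 and 9.33. The groups overlapped, and the difference was -0.077 ± 0.054 (SE, limma adjusted p 0.398), with an interval from -0.20 to 0.050. It was -0.034 without rapamycin mouse 1 and -0.12 without rapamycin mouse 2.

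Spi1 (probe set 10473809), which encodes PU.1, had the smallest standard error of the 9. Its log2 values were 11.78, 11.85 and 11.76 with PBS and 11.77, 11.76 and 11.74 with rapamycin. The difference was -0.045 ± 0.045 (SE, limma adjusted p 0.556), and the 95% interval, from -0.15 to 0.060, ran from 1.11-fold lower to 1.04-fold higher. It was -0.13 after a repeated quantile normalization (limma adjusted p 0.113), -0.022 with the array medians aligned and -0.017 without PBS mouse 2. The 2 factors of monocytes did not pass the test either. Irf8 (probe set 10576034) read 8.11, 7.95 and 7.96 with PBS and 8.36, 8.03 and 8.13 with rapamycin. Rapamycin replicate 1 was the highest of the 6 and rapamycin mouse 2 lay below PBS mouse 1. The difference was 0.17 ± 0.09 (SE, limma adjusted p 0.273), with an interval from -0.045 to 0.38. Without rapamycin mouse 1 it was 0.074.

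Klf4 (probe set 10513008), which monocytes need in mice, read 7.20, 7.18 and 7.26 with PBS and 7.26, 7.04 and 7.34 with rapamycin. The rapamycin mice held both the lowest and the highest of the 6 values. The difference was -0.00017 ± 0.078 (SE, limma adjusted p 0.999), with an interval from -0.18 to 0.18. Its sign was positive after 2 other scalings, at 0.024 after a repeated quantile normalization and 0.023 with the array medians aligned. Maf (probe set 10581992), a factor of mature macrophages and of some helper T cells, read 7.77, 7.65 and 7.37 with PBS. It read 7.70, 7.76 and 7.68 with rapamycin. PBS mouse 3 was the low array, and the spread was wider with PBS (SD 0.21) than with rapamycin (0.045). The difference was 0.12 ± 0.10 (SE, limma adjusted p 0.477), with 0.21 without PBS mouse 1 and 0.0042 without PBS mouse 3.

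**Figure D3:**
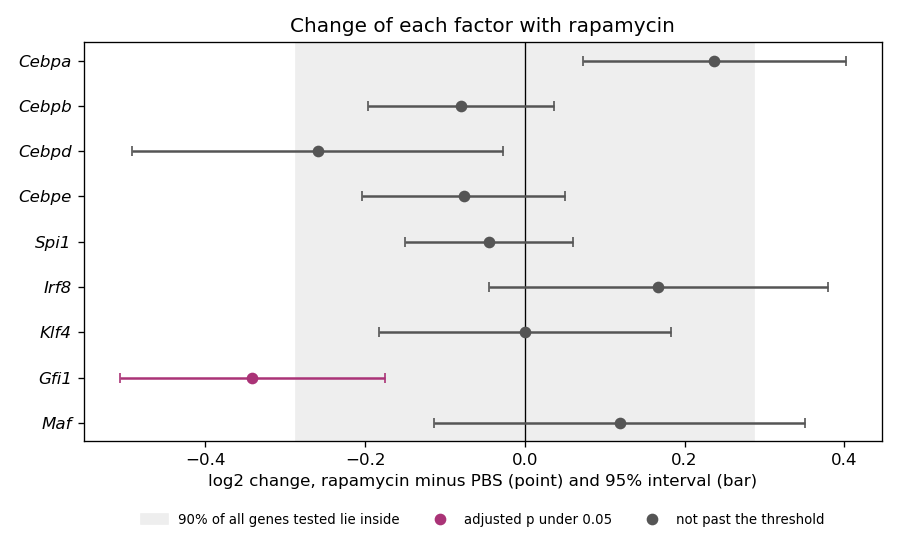
Log2 change of each factor, rapamycin minus PBS (x axis), with its 95% interval from limma; the grey band spans -0.29 to 0.29, within which 90% of all genes tested lie. Gfi1 is the only factor past the threshold and the only one outside the band, at -0.34; Klf4 lies at -0.00017.

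Over the 6 mice, Irf8 and Cebpe varied in opposite directions. The mouse with the highest Irf8, rapamycin mouse 1 at 8.36, had the lowest Cebpe at 9.24. The next in Irf8, rapamycin mouse 3 at 8.13, was the next lowest in Cebpe at 9.33. Pearson's r was -0.988 (exact permutation p 0.00278, adjusted 0.10 over 36 pairs of factors) and Spearman's rho was -0.943 (exact p 0.0167, adjusted 0.150), 2-sided, n = 6. Without the 2 arrays farthest from the median Cebpe, rapamycin mice 1 and 3, r was -0.956, and for deviations from the group means it was -0.980. The pair was singled out after all 36 were computed, and it does not pass the adjustment. With 720 orders of the 6 arrays, the smallest exact p times 36 is not under 0.05. A lone pair therefore could not pass, and that outcome was fixed in advance. Of the 36 pairs 2 had an unadjusted exact p under 0.05 for r, and 0 had an adjusted one. The other was Cebpa with Spi1, whose r was -0.877 (exact permutation p 0.0194, adjusted 0.350) and whose rho was -0.783 (exact permutation p 0.0778, adjusted 0.350), n = 6. Without PBS mouse 2 and rapamycin mouse 3 its r was -0.181, so that relation rests on those 2 arrays. When arrays were exchanged only inside their group, a test of deviations from the group means added after the values above were seen, the exact permutation p of Irf8 with Cebpe was 0.0556 (adjusted 0.50 over the 36 pairs, n = 6). That of Cebpa with Spi1 was 0.167 (exact permutation, adjusted 0.857, n = 6). With 36 such exchanges, a lone pair could not pass this adjustment either.

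**Figure D4:**
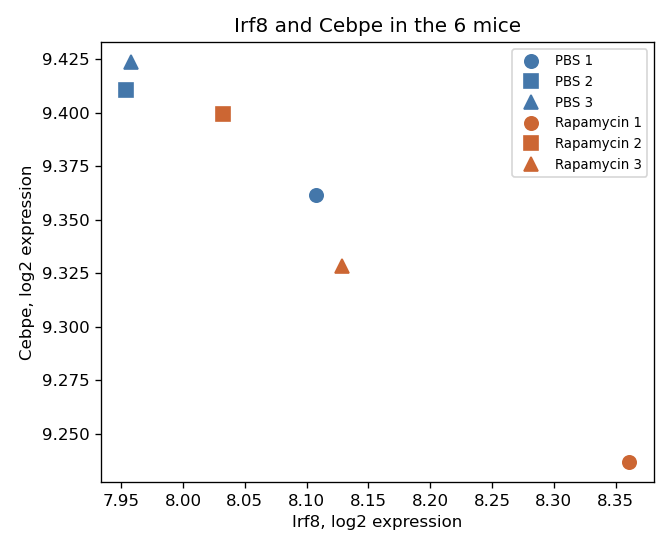
Log2 expression of Cebpe (y axis) against Irf8 (x axis) in the 6 mice, PBS blue and rapamycin orange, symbols by replicate. Cebpe is lowest, at 9.24, in the mouse with the highest Irf8. In both genes the groups overlap only through PBS mouse 1 and rapamycin mouse 2.

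The genes whose values over the 6 arrays ran most like those of each factor, by Pearson's r among all 13965 genes, are given as a description. For Gfi1 they were Trip13 (0.997), a remodeller of mitotic checkpoint complexes, Sp3os (0.997) and Zfp319 (0.997), of which Trip13 and Zfp319 were called as lower. For Cebpa they were the proteasome subunit Psmb4 (0.993), Proser1 (0.991) and the cell cycle phosphatase Cdc25b (0.990). For Cebpb they were Dpysl5 (0.998), the myeloid Src-family kinase Fgr (0.988) and Pik3c2b (0.984). Those of Cebpd were Ccdc88b (0.997), Vgll1 (0.993) and Cdh23 (0.992), and those of Cebpe were Psg20 (0.993), Cyp26b1 (0.991) and Ybx2 (0.990). Spi1 ran most like Poll (0.979), Sepsecs (0.976) and Ccdc171 (0.974). Irf8 ran most like Mgrn1 (0.996), Tcf4 (0.984), the factor of plasmacytoid dendritic cells, and Ambra1 (0.982). Klf4 ran most like the receptor Flt3 (0.995), Nepro (0.994) and Cipc (0.993), and Maf like Cln8 (0.980), the sheddase Adam17 (0.977) and Defb15 (0.969). Each r is the top of many over 6 arrays and holds the group difference too.

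Around the 9 factors, relatives and partners of C/EBP rose in part. Of 11 genes that pair with or control C/EBP proteins 5 rose and 0 fell, where 4.42% and 6.92% of all genes tested did, and 6 were not called. The median log2 change of the 11 was 0.074, beside -0.017 for all genes tested. Batf2, a partner of interferon-driven programmes, rose by 1.07 ± 0.15 (SE), Atf3, a stress-induced factor, by 0.55 ± 0.07 and Nfil3 by 0.39 ± 0.05. Cebpg, a C/EBP protein without an activating domain, rose by 0.36 ± 0.06, and the stress factor Atf4 by 0.22 ± 0.04. Limma's adjusted p ran from 0.00770 for Atf3 to 0.0230 for Atf4. With PBS mouse 2 left out the count of 5 was 1 (Atf3). It was 3 with PBS mouse 1 or 3 or rapamycin mouse 1 left out, and 4 with rapamycin mouse 2 left out. Batf2 and Nfil3 were lost without PBS mouse 2 (adjusted p 0.0527 and 0.0531 with limma).

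The families of the other factors were taken list by list, beside the 11.3% of all genes tested that passed the test. Of 12 other ETS factors tested, Gabpa fell by 0.36 ± 0.06 (SE). Etv3 stood at -0.22 ± 0.06, Ets1 at -0.29 ± 0.08 and Fli1 at -0.18 ± 0.05, none of these past the threshold. The changes of the 12 ran from -0.36 to 0.30, at a list median of 0.036. Of 7 other interferon regulatory factors, Irf2, a repressor of interferon responses, rose by 0.42 ± 0.06 and Irf1 by 0.35 ± 0.08. The mean of the probe sets of Irf1 gave -0.085 (limma adjusted p 0.501), so its sign depends on the probe set. Of 10 other Kruppel-like factors, Klf2, which holds leukocytes quiescent, fell by 0.44 ± 0.08 and Klf13 by 0.26 ± 0.06. The changes of the 10 ran from -0.44 to 0.17, at a list median of 0.014. Of 7 other Maf and CNC factors 0 passed the test, and Maff stood at 0.21 ± 0.06 (limma adjusted p 0.0591). Of 9 genes listed around Gfi1 (relatives, corepressors, Zeb2 and Id genes) 0 passed it, with a list median of -0.11. The corepressor deacetylase Hdac1 stood at -0.16 ± 0.05 and Id1 at -0.21 ± 0.06. Without PBS mouse 2 none of Gabpa, Irf1, Irf2, Klf2 and Klf13 was called, with limma's adjusted p between 0.0504 for Irf2 and 0.122 for Irf1. Of the 5 other fits of this kind Irf2 was called in 5, Gabpa in 3, Klf2 in 2, and Irf1 and Klf13 in 1, that without rapamycin mouse 3.

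Of 30 other factors of blood lineages 6 rose and 4 fell, where 4.42% and 6.92% of all genes tested did, and 20 were not called. The list median was 0.011, beside -0.017 for all genes tested. Lmo2, a bridging factor of progenitors, fell by 0.51 ± 0.05 (SE), the immediate early factor Egr1, which favours macrophages, by 1.13 ± 0.17, Hhex by 0.46 ± 0.08 and Cbfb, the partner of Runx proteins, by 0.18 ± 0.04. Tfec, a factor of macrophages, rose by 0.50 ± 0.06, the ligand-activated factor Ahr by 0.66 ± 0.10, and Myc by 0.71 ± 0.13. Runx3 rose by 0.56 ± 0.12, the vitamin D receptor Vdr by 0.58 ± 0.13 and the retinoic acid receptor Rara by 0.27 ± 0.05. Lmo2 and Tfec were called in all 6 fits that leave out a mouse. Without PBS mouse 2 these were the only ones of the 10 called. The counts in this list were 2 higher and 2 lower with PBS mouse 3 or rapamycin mouse 2 left out, 3 and 1 with rapamycin mouse 1 left out, and 4 and 3 with PBS mouse 1 left out.

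Of 10 receptors through which growth factors act on these lineages, several of them targets of PU.1 and C/EBP proteins, 2 rose and 1 fell, where 4.42% and 6.92% of all genes tested did, and 7 were not called. The median log2 change of the 10 was 0.11, beside -0.017 for all genes tested. The groups did not overlap for 6 of them, where this held for 32.0% of all genes tested. Csf2ra, the binding chain of the GM-CSF receptor, fell by 0.30 ± 0.05 (SE), and Csf2rb2, the beta chain for IL-3, rose by 0.23 ± 0.05 and Il6ra by 0.22 ± 0.05. The shared chain Csf2rb stood at 0.26 ± 0.08 (limma adjusted p 0.0787). The receptors Csf3r, for the neutrophil growth factor, and Csf1r, for the macrophage growth factor, stood at 0.065 ± 0.12 and 0.13 ± 0.11. None of the 3 calls was kept with any 1 PBS mouse or rapamycin mouse 1 left out, where limma's adjusted p ran from 0.0539 to 0.112, and with rapamycin mouse 2 left out Csf2ra alone was called.

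Genes of the granulocyte path, where Gfi1 and Cebpe act, were mostly not past the threshold, which 11.3% of all genes tested passed. Of 8 genes of primary granules and early granulocytes Nkg7 fell by 0.66 ± 0.12 (SE); it is also a gene of cytotoxic lymphocytes. The proteases Elane and Prtn3 stood at 0.13 ± 0.10 and -0.0021 ± 0.10, and myeloperoxidase Mpo at -0.40 ± 0.15 (limma adjusted p 0.125). The summed level of these 8 (log2 of summed linear values) lay between 13.03 and 13.11 with PBS and between 12.98 and 13.16 with rapamycin, so the groups overlapped. Of 16 genes of secondary and tertiary granules, the integrin-like Itgb2l fell by 0.27 ± 0.05 and 15 were not called. Among them Ltf (lactoferrin) stood at -0.077 ± 0.07, Camp at -0.11 ± 0.06 and Ngp at -0.029 ± 0.04. The changes of the 16 ran from -0.51 to 0.040, at a median of -0.069 beside -0.017 for all genes tested. Their summed level lay between 16.67 and 16.74 with PBS and between 16.62 and 16.68 with rapamycin, so the groups overlapped. The largest difference of the list was that of Olfm4, a granule protein of a subset of neutrophils, at -0.51 ± 0.15 (limma adjusted p 0.0728), and its groups did not overlap. With the replicate block 2 genes of this list were called as lower in place of 1. Nkg7 and Itgb2l were each called in 3 of the 6 fits that leave out a mouse, and neither was with PBS mouse 2 or 3 left out. Nkg7 was also lost without PBS mouse 1 (limma adjusted p 0.0689), and Itgb2l without rapamycin mouse 1.

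Markers of the monocyte, dendritic and macrophage paths, where Irf8, Klf4 and Maf act, moved both ways. Over all genes tested 4.42% rose and 6.92% fell. Of 15 monocyte genes 2 rose and 3 fell. The endotoxin coreceptor Cd14 rose by 1.15 ± 0.10 (SE) and Ms4a6c by 0.38 ± 0.08. Ace changed by -0.57 ± 0.13, Cd300e by -0.49 ± 0.11 and the chemokine receptor Ccr2 by -0.34 ± 0.08. The groups did not overlap, in either direction, for 12 of the 15 monocyte genes, where this held for 32.0% of all genes tested. The median change of the 15 was -0.12. Of 11 dendritic cell genes tested 3 rose and 0 fell, at a median of 0.27: Cst3 by 0.44 ± 0.05, the class II chain H2-Eb1 by 0.54 ± 0.11 and the integrin Itgax by 0.82 ± 0.18. Cd209a, Ccr7 and Clec10a stood at -0.087, -0.051 and -0.011, and the remaining tested genes stood above 0, none of these called. The summed level of all 14 dendritic cell genes measured, those under the filter included, lay between 13.80 and 14.02 with PBS and between 14.14 and 14.34 with rapamycin. Cd74 and H2-Ab1 were its brightest genes (PBS means 12.50 and 12.05). Of 13 macrophage genes Cd68 rose by 0.83 ± 0.09 and Hmox1 by 0.72 ± 0.14. The iron exporter Slc40a1 changed by -0.38 ± 0.05 and Mrc1 by -1.04 ± 0.14, and the median change of the 13 was 0.13. The summed level of all 15 macrophage genes measured lay between 12.663 and 13.05 with PBS and between 13.189 and 13.225 with rapamycin. Cd68 was its brightest gene (PBS mean 10.69). Without PBS mouse 2 Cd14 was the only one of the 12 called genes of this paragraph that kept its call. With PBS mouse 3 or rapamycin mouse 1 or 2 left out, 0 of the 3 lower monocyte genes were called, and of the dendritic cell genes Cst3 alone. Hmox1 was called in 1 of the 6 fits of this kind.

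Markers of further cell types, mature neutrophils among them, were read as well, since Gfi1 and Maf are also used by T cells. As a background, 4.42% of all genes tested were called as higher and 6.92% as lower. Of 8 T cell genes measured 3 (Cd28, Cd3d and Trat1) lay under the brightness filter. Of the 5 tested Cd8a changed by -0.27 ± 0.06 (SE) and Cd3g by -0.39 ± 0.09, both called as lower, with Cd8b1 at -0.48 ± 0.12 and Cd3e at -0.18 ± 0.12. The summed level of all 8 measured, the 3 under the filter included, ran from 8.28 to 8.36 with PBS and from 7.94 to 8.16 with rapamycin. Of 3 B cell genes tested Cd79b fell by 0.32 ± 0.06, and of 7 genes of natural killer cells 5 lay under the filter and 0 passed the test. Of 5 basophil and mast cell genes tested 0 passed it, at a list median of -0.43. Their proteases Mcpt8, Cpa3 and Prss34 stood at -0.70 ± 0.20, -0.56 ± 0.16 and -0.43 ± 0.12 (limma adjusted p 0.0660, 0.0664 and 0.0684). Each had all rapamycin arrays below all PBS arrays, which held for 19.4% of all genes tested. Gata2 stood at -0.077 ± 0.06 and Hdc, the brightest gene of the list, at 0.16 ± 0.16, both with overlapping groups. The summed level of all 8 basophil and mast cell genes measured ran from 11.40 to 11.44 with PBS. With rapamycin it ran from 11.19 to 11.73, so the groups overlapped. With rapamycin mouse 3 left out 3 genes of this list were called as lower and 1 as higher. With array weights 3 were called as lower, and 1 with the replicate block or the stricter brightness filter. The part of any of these markers in the change of Gfi1 was not tested. Of 5 erythroid genes Slc4a1 rose by 0.64 ± 0.09, and of 3 eosinophil genes tested Alox15 rose by 2.47 ± 0.27 while Siglecf stood at 0.031 ± 0.04. Of 2 platelet genes 0 passed the test. Of the 10 mature neutrophil genes 3 rose and 1 fell, with Il1r2 0.70 ± 0.07 higher, Slpi 0.48 ± 0.07, Trem1 0.35 ± 0.09 and Cd101 at -1.12 ± 0.22. Without PBS mouse 2 the calls among all genes named in this paragraph were those of Alox15 and Il1r2. Both T cell calls were also lost with PBS mouse 3 or any 1 rapamycin mouse left out, and that of Cd8a with PBS mouse 1 left out. Cd79b and Cd101 were called in 2 fits of this kind, those without rapamycin mouse 2 or 3, and Trem1 in 1. Irf1 aside, no called gene named from the lists changed sign in any alternative.

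**Figure D5:**
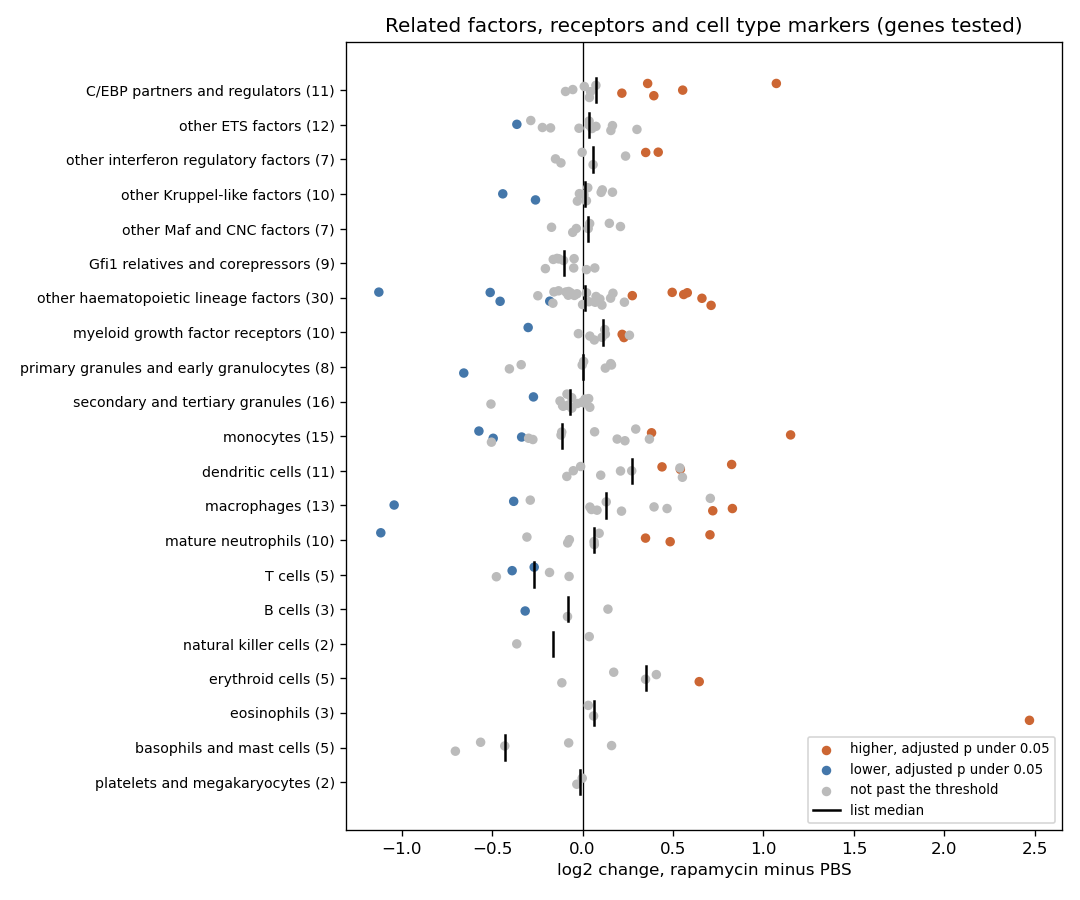
Log2 change, rapamycin minus PBS (x axis), of every tested gene of 21 lists (y axis, number tested in brackets), with called genes orange (higher) or blue (lower), others grey, and the list median as a bar. Of the C/EBP partners 5 of 11 rose, where 4.42% of all genes tested did. No gene was called of the other Maf factors or of the list labelled Gfi1 relatives and corepressors, which also holds Zeb2 and Id genes.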

How the data were processed

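Total RNA of the sorted cells of 6 mice was read on 1 array each. Each probe set has a deposited log2 expression value, which the authors made with RMA in Affymetrix Expression Console, per the submitters' processing notes. Versions and genome build are not given in the sources used here. The method equalises the arrays' distributions, which removes a change shared by most genes. Arrays have no depth, and 3 per group limit the precision. No pair of arrays shared more than 6.99% of values exactly. No scan dates are given, so batches were not tested.

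Of 35556 probe sets, 21789 had 1 symbol in GEO's platform annotation of 2016. Symbols were matched to RefSeq GRCm38.p6 through Entrez IDs (21698 matched, 0 changed). Each of 19938 genes was represented by its probe set of highest mean. A brightness filter at the 30th percentile of probe set means kept 13965. Rapamycin was set against PBS in limma 3.58.1 under R 4.3.3 (lmFit, eBayes, 2-sided, Benjamini-Hochberg over all genes tested). For a single gene, an exact permutation test of 3 against 3 cannot go below 0.10. On simulated data with 50 changed genes at each size among 13965, the fit recovered 25 at a log2 change of 0.3 and 50 at 0.6, with 10 false among 184 calls. The deposited data gave 1584 calls, so the adjustment differed and these recoveries need not carry over.

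The factors and the 21 lists (238 entries, 225 measured) were chosen with earlier results of these data known. Named genes were the 9 factors, from each list up to 4 genes by size of the moderated statistic and, for each factor, the 3 genes with the highest Pearson r. Other list members named were picked with their values known. They were Atf4, Hhex, Myc, Rara, Runx3, Vdr, Cbfb, Csf3r, Csf1r, Elane, Prtn3, Ltf, Camp, Ngp, Ccr2, Cd209a, Ccr7, Clec10a, Cd74, H2-Ab1, Hdc and Ly6g. The alternatives were another brightness filter or none, 2 other scalings, averaged probe sets, every probe set, trend and robust variance, array weights, a block for the replicate number, and each array left out in turn. Motif letters were searched on both strands. Figures were drawn with matplotlib 3.10.9.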

Additional observations from a re-analysis of the deposited data

How the results depend on the processing

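Of 135 recomputed log2 changes of the 9 factors, 124 kept sign and side of the threshold, 5 lost the call, 2 gained one and 4 changed sign. The 5 losses were those of Gfi1 with an array left out. In the 9 other settings Gfi1 was called, with limma's adjusted p between 0.0152 (replicate number as a block) and 0.0396 (no brightness filter), as it was without rapamycin mouse 3. The count of factors called as lower was thus 0 to 1 in fits with an array left out. The count called as higher was 1 (Cebpa) in place of 0 after a repeated quantile normalization, with limma's adjusted p of 0.0417. It was also 1 with the replicate block (Cebpa, adjusted p 0.0356 with limma). Klf4, at -0.00017 in all arrays, changed sign to 0.024 after quantile normalization and 0.023 with array medians aligned. With an array left out it ran from -0.061 to 0.085, with the sign changed without PBS mouse 3 (0.022) or rapamycin mouse 2 (0.085). None of these passed the threshold. The genes called over the whole array were 617 higher and 967 lower, and with an array left out between 52 and 561 higher and between 61 and 775 lower. With array medians aligned they were 722 and 743, so the share of lower calls was 50.7% in place of 61.0%. Of 588 recomputed counts over the lists, 483 stayed within 1.5 times and 105 did not. Whether the replicate numbers pair the mice cannot be settled here. Deviations from the group means correlated at 0.26, 0.010 and 0.046 for numbers 1, 2 and 3. That of number 1 was the highest of all combinations, while PBS mice 2 and 3 correlated better with another number. Deviations of 3 mice sum to 0, so these correlations are bound to each other. With the replicate number as a block, 768 genes were called higher and 923 lower. The causes were not tested; fits with an array left out have fewer samples. Dim genes near the array's background understate changes.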

Other observations

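Cebpa had the same deposited value, 7.19 on the log2 scale, in PBS mice 1 and 3 to all digits given, and was lower, at 6.999, in PBS mouse 2.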
